A study of Mus musculus with 22 samples.

Results

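The genes described here make cholesterol or sense and move it. They are 29 of the 28034 genes named on the array, and were taken by symbol: 7 act in the mevalonate steps, from acetyl-CoA to farnesyl pyrophosphate, 11 in the sterol steps from squalene on, 5 in the sensing and regulation of sterols, and 6 in the esterification or transport of cholesterol. Together they had 55 of the 41174 probes that are not controls. Each of the 29 genes passed the filter on dim probes in newborn and in adult livers, so all of them were tested.

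Liver RNA of 22 C57BL/6 mice was measured on 2-colour Agilent arrays, 1 array per mouse, against a common mouse reference RNA from Stratagene. Newborn Tcf7l2+/+ pups (4 wild types) and Tcf7l2-/- pups (4 knockouts) had been given 50 ul of 10% glucose under the skin, and livers were taken 5 h after birth. Adult Tcf7l2loxp/loxp mice without Cre (controls) or with SA-CreERT2 (knockouts, named LTCF4KO in the labels) all received tamoxifen at 3 weeks of age. Between 1 and 2 months later, 4 controls and 4 knockouts went without food for 24 h, and 3 controls and 3 knockouts ate ad libitum. The adult controls had therefore received tamoxifen but carried no Cre, and the adult knockout depends on the cells in which SA-CreERT2 was active. Values are log2 ratios of liver over reference, and a change is a difference between group means of that ratio.

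Cholesterol is built from acetyl-CoA through mevalonate and isoprenoid units to squalene, lanosterol and finally cholesterol. When sterols in the endoplasmic reticulum are low, the escort protein SCAP carries the transcription factor precursor SREBP2 to the Golgi for cleavage, and SREBP2 raises transcription of most enzymes of the route. When sterols are high, INSIG proteins hold SCAP and SREBP2 back. The liver is a main site of this synthesis and also exports cholesterol into bile through the ABCG5 and ABCG8 transporter pair. Feeding activates the route in liver and fasting lowers it.

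Tcf7l2, the gene targeted in the knockouts, was read first as a check of the labels. On the probe with the clearest newborn signal, the log2 ratios were -1.28, -0.83, -0.70 and -0.32 in the wild types and -1.85, -1.57, -1.58 and -1.63 in the knockouts, with no overlap. The newborn difference was -0.87 (SE 0.19, limma, Benjamini-Hochberg adjusted p over all probes = 0.0617). On the same probe the adult knockouts were not lower, with differences of 0.35 in fasted and 0.21 in fed livers (limma, adjusted p = 0.522 and 1.00). Another Tcf7l2 probe tested in newborns gave 0.08 there (limma, adjusted p over all probes = 0.860). On a further probe the newborn genotypes overlapped, at -0.66 to -0.17 in wild types and -0.57 to -0.28 in knockouts. The newborn check therefore rests on the first probe alone. The sources used here do not place the probes relative to the deleted part of the gene. The Tcf7l2 reading therefore does not check the adult labels. On newborn and fasted arrays 50.2% to 64.4% of liver spots were well above background, and on fed arrays 22.8% to 31.2%. The 6 hepatocyte markers were well above background in every group. All samples are whole liver, in which fewer cells of a type and less RNA per cell cannot be told apart.

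Promoters of the genes that the results turn on were read from RefSeq (GRCm38.p6). Of the 29 genes, 23 had an entry in the table, with 30 windows of 300 bases that run from 250 bases before to 50 bases after a start. The 250 bases before the start are shown for Nsdhl (chrX:72918271-72918520, plus strand), the gene with the smallest p among the synthesis genes in each adult comparison of 2 groups, for Insig1 (chr5:28071162-28071411, plus strand), the gene farthest below 0 between fasted and fed knockouts, and for Hmgcs1 (chr13:119690101-119690350, plus strand), one of the genes whose window holds the sterol element core. The capitals mark, on either strand, CCAAT (the NF-Y box), GGGCGG (the Sp1 box) and CACCCCAC (the core of a sterol regulatory element).
Nsdhl: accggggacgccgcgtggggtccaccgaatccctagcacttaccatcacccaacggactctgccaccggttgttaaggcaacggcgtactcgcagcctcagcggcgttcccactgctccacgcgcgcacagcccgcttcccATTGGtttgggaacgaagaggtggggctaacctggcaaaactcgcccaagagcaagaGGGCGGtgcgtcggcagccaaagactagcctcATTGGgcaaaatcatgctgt
Insig1: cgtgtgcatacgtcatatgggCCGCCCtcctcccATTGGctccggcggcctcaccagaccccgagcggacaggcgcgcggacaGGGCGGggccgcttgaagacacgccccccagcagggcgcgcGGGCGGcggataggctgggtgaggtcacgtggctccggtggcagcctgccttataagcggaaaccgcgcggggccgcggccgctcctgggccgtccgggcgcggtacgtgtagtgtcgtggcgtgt
Hmgcs1: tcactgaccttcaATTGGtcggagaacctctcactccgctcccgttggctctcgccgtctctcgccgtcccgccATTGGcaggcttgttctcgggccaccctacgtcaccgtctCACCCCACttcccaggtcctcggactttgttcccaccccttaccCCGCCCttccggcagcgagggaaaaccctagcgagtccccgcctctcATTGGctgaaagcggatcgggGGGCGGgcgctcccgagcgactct
The interval between the starts of Abcg5 and Abcg8, which lie head to head on chromosome 17, is shown because their readings went opposite ways with fasting (chr17:84683012-84683120, plus strand, 109 bases). The interval itself holds none of the motifs searched, but a 300-base window of each of the 2 genes holds the NF-Y box. Abcg8 has another listed start.
Abcg5-Abcg8 interval: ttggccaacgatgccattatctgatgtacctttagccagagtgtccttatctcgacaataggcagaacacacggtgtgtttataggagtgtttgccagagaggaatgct

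The NF-Y box was in 20 of the 30 windows of these genes (66.7%) and in 37.4% of all 32851 windows in the table, counting both strands. The Sp1 box was in 23 of 30 (76.7%), against 35.7% of all windows. The sterol element core CACCCCAC was in 2 of 30 (6.67%, Acat2 and Hmgcs1), against 2.87% of all. The letters of the TCF site were in 1 window as CTTTGAT (Npc2, against 3.73% of all) and in 1 window as CTTTGAA (Pmvk, against 5.14%). In Nsdhl the NF-Y boxes began 109 and 20 bases before the start and the Sp1 box 52 bases before it. In Hmgcs1 the sterol element core began 136 bases before the start, with NF-Y boxes at 237, 176 and 45 bases. A match of letters is a description of the window and no measure of binding, and the windows hold no more distant sequence.

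The first question was whether livers without Tcf7l2 differ in these genes when adults have fasted. In fasted livers the enzymes of the route were mostly lower in the knockouts, and Nsdhl passed the test. Nsdhl, the sterol dehydrogenase of the C4 demethylation complex, had log2 ratios of 0.42, 0.85, 0.41 and 0.92 in the controls and -0.47, -0.68, -0.19 and -0.44 in the knockouts. Every knockout lay below every control. The probe lies on chrX:70200532-70201713 of mm9, plus strand. Nsdhl fell by 1.10 (SE 0.20, 2.14-fold lower; limma, Benjamini-Hochberg adjusted p = 0.0324), which makes 1 of 29 genes lower and 0 higher, against a background of 0.372% of all 17188 genes lower and 0.105% higher. At an unadjusted p under 0.05 there were 13 of the 29, against 11.2% of all genes.

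The mevalonate steps were below 0 in 7 of 7 genes, with a median change of -0.81, and none passed the test. Mvk, mevalonate kinase, had ratios of 0.50, 0.45, 0.22 and 0.50 in the fasted controls and -0.35, -0.25, -0.09 and -0.63 in the fasted knockouts. The groups did not overlap, and the difference was -0.75 (SE 0.18, limma, adjusted p = 0.0994). Fdps, farnesyl pyrophosphate synthase, stood at 0.71, 0.52, 0.59 and 0.67 in the controls, within a narrow band, and at -0.51, -0.71, -0.08 and -0.87 in the knockouts. Its difference was -1.16 (SE 0.30, limma, adjusted p = 0.143). Hmgcs1, the synthase of HMG-CoA, showed -0.97, Idi1, the isopentenyl diphosphate isomerase, -0.89, and Mvd, the mevalonate diphosphate decarboxylase, -0.81. Pmvk, phosphomevalonate kinase, and Acat2, the cytosolic acetoacetyl-CoA thiolase, differed least in the ratio, at -0.22 and -0.02. Acat2 was at 0.81 by the liver channel alone (limma, adjusted p = 0.0913), and its reference signal differed by 0.83 between the same arrays.

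The sterol steps were below 0 in 10 of 11 genes, with a median of -0.61, and Nsdhl was the gene of this group that passed. Hsd17b7, the keto-reductase that acts next to Nsdhl in C4 demethylation, had ratios of 1.76, 2.92, 3.14 and 2.68 in the fasted controls and 1.79, 1.05, 1.86 and 1.34 in the knockouts. Fasted control 1 lay within the range of the knockouts, and the other 3 controls lay above it. The Hsd17b7 difference was -1.12 (SE 0.30, limma, adjusted p = 0.159). Its other probe gave -1.31 (limma, adjusted p over all probes = 0.0326), so the 2 probes of Hsd17b7 fall on opposite sides of the threshold. The 3 brighter probes of Nsdhl gave -1.10, -1.05 and -1.08 (limma, adjusted p over all probes = 0.0336, 0.13 and 0.0477), and the dim probe, well above background on 2 arrays of each fasted group, gave -0.91. Mvk gave -0.80 on its other probe and Fdps -1.22.

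Among the other sterol steps, Msmo1, the C4 methyl oxidase of the same complex, showed -1.17 and Cyp51, the lanosterol demethylase, -0.93. Fdft1, squalene synthase, showed -0.61, with separate groups. Ebp, the sterol isomerase, was the exception, with 2.57, 2.79, 2.54 and 2.75 in the controls and 3.48, 2.96, 3.40 and 2.89 in the knockouts, a difference of 0.52 (limma, adjusted p = 0.178). The controls lay wholly below the knockouts in Ebp. By the liver channel alone the direction of Ebp turned, to -1.12 (limma, adjusted p = 0.301), and its reference signal differed by -1.63 between the same arrays. Dhcr7, the reductase of the last step, differed by -0.03. The ranges were separate and lower in 6 of the 29 genes, all of them enzymes (Nsdhl, Mvk, Fdps, Cyp51, Fdft1 and Mvd), against 3.52% of all genes, and separate and higher in 1 (Ebp), against 2.98%.

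The regulators and the transport genes were divided, and the difference between roles was not tested. Of 5 regulators 3 were below 0, with a median of -0.09, and of 6 esterification and transport genes 3 were below 0, with a median of -0.003. Insig1, the sterol-dependent anchor of SCAP, differed by -0.43 (limma, adjusted p = 0.582) and on its other probe by -0.54 (limma, adjusted p over all probes = 0.270). Soat2, an acyltransferase of cholesterol, differed by -0.35 and Abcg8, a sterol exporter, by -0.45 (limma, adjusted p = 0.460 and 0.600). Srebf2, which encodes SREBP2, differed by -0.09 (limma, adjusted p = 0.919). Over all 29 genes the median was -0.40 and 23 were below 0, against a median of 0.01 and 48.8% of all genes tested. Of the 12 fatty acid synthesis genes measured for comparison 5 were below 0, with a median of 0.07 and none past the threshold. Of 24 other genes of the pathway 23 were tested and none passed in either direction (9 below 0, median 0.05). Among these, Tmem97, a sterol-responsive membrane protein, stood at -0.55 (limma, adjusted p = 0.149).

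**Figure D1:**
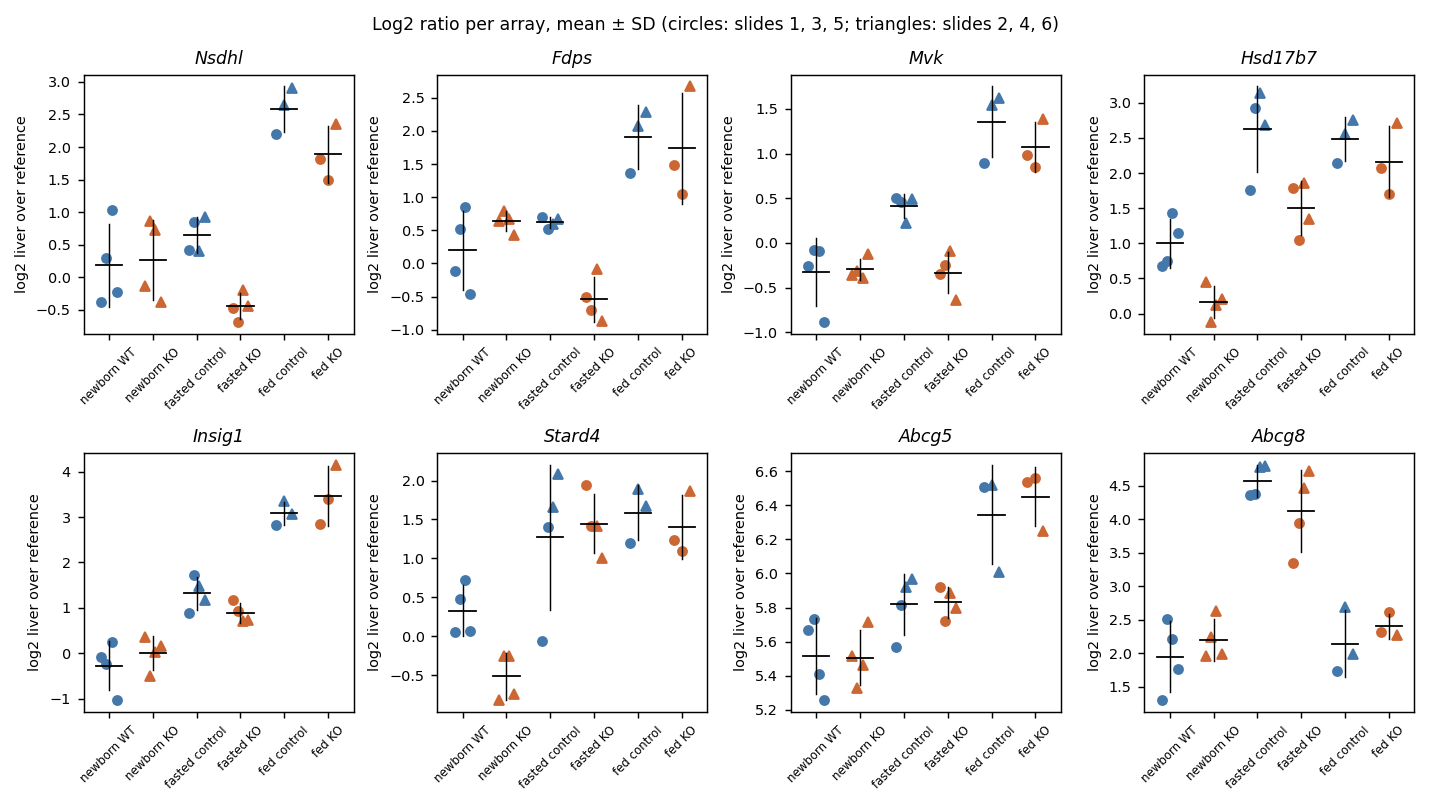
Log2 ratio of liver over reference on each array for 8 genes, by group (wild type or control in blue, knockout in orange), with the mean (horizontal line) and SD (vertical line) of 4 arrays for each newborn and fasted group and 3 for each fed group; circles are slides 1, 3 and 5 and triangles slides 2, 4 and 6. In Nsdhl, Fdps and Mvk the fasted knockouts lie wholly below the fasted controls, in Stard4 the newborn knockouts lie below the wild types, and Abcg8 is higher in fasted than in fed livers.

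Each fasted slide carried 2 controls and 2 knockouts, which allows the difference to be read within a slide. The 18 enzymes had a median difference of -0.71 on slide 3, where 15 were below 0, and of -0.70 on slide 4, where 17 were below 0. On both slides 15 enzymes and 19 of the 29 genes were below 0, against 27.9% of all genes. Nsdhl differed by -1.21 and -0.98 on slides 3 and 4, Fdps by -1.22 and -1.10, and Mvk by -0.78 and -0.72. Stard4, a carrier of free cholesterol between membranes, went opposite ways on the 2 slides. The medians of the enzymes were therefore of like size on the 2 slides. Single enzymes could differ, such as Msmo1 at -0.77 and -1.58 and Tm7sf2 at -0.31 and -0.03 on slides 3 and 4. With the slide as a block in the fit, 5 enzymes passed: Nsdhl, Fdps, Mvk, Fdft1 and Cyp51 (limma, adjusted p = 0.00637, 0.0135, 0.0205, 0.0348 and 0.0438), against 0.541% of all genes lower and 0.239% higher.

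The Nsdhl call rests on few mice. It was lost when fasted control 2 or 4 or fasted knockout 1 or 2 was left out (limma, adjusted p = 0.104, 0.0898, 0.0927 and 0.121), and also without fed control 2 or fed knockout 1, which enter through the shared error (adjusted p = 0.0532 and 0.0501). The change itself stayed between -1.18 and -1.01. Markers of exocrine pancreas moved with the fasted knockouts: 3 of 6 were tested, with a median of 1.78 and none past the threshold, and their summed liver signal ran from 665 to 32996 normalized intensity units in the knockouts and from 695 to 868 in the controls. The 4 cholangiocyte markers had a median of 0.31 and a highest change of 1.77, none past the threshold, and their summed signal was separate, at 2555 to 8612 units in the knockouts and 1668 to 2228 in the controls. Of 5 neutrophil markers 3 were tested, with a median of 0.92 and none past the threshold, at 729 to 8891 units in the knockouts and 970 to 2614 in the controls. The part of these cells in the result was not tested. Without fasted knockouts 1 and 2, which stood apart in the leading components of the adult arrays and were left out after the data had been seen, Nsdhl was at -0.97 (limma, adjusted p = 0.391, background 0.198%). The controls occupied positions 1 and 2 and the knockouts positions 3 and 4 of both slides, so genotype and that side of the slide cannot be told apart.

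**Figure D2:**
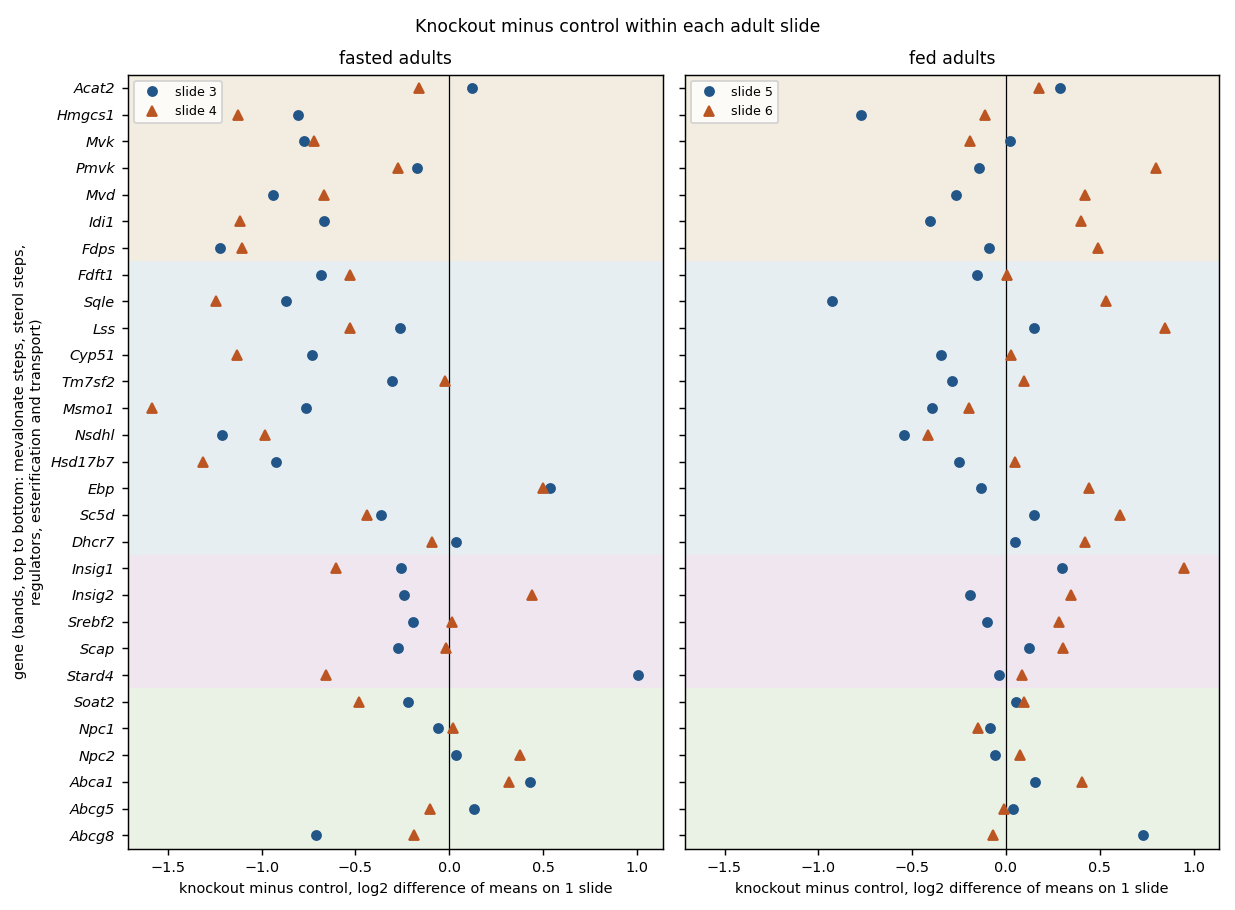
Knockout mean minus control mean of the log2 ratio within each adult slide for the 29 genes, in fasted livers (left, 2 against 2 arrays per slide) and fed livers (right, 2 knockouts and 1 control on slide 5, 1 knockout and 2 controls on slide 6); shaded bands from top to bottom are mevalonate steps, sterol steps, regulators, and esterification and transport. In fasted livers 15 of the 18 enzymes lie below 0 on both slides, and in fed livers 17 of the 29 genes have opposite signs on the 2 slides.

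In fed adults the same comparison gave no gene past the threshold, against a background of 0.221% of all genes in either direction, and 1 of the 29 had an unadjusted p under 0.05 (7.15% of all genes). The median was 0.00, with 14 of 29 genes below 0 (44.1% of all genes). The roles differed: of the 18 enzymes 12 were below 0, with a median of -0.28. Of the 5 regulators 1 was below 0 (median 0.18), and of the 6 esterification and transport genes 1 (median 0.08). Nsdhl had ratios of 2.20, 2.64 and 2.90 in the fed controls and 1.81, 1.49 and 2.35 in the fed knockouts. The highest knockout overlapped the lowest control, and the difference was -0.69 (SE 0.24, limma, adjusted p = 0.475). The other bright probes of Nsdhl gave -0.54 and -0.53. Hmgcs1 stood at 0.86, 1.80 and 1.50 in the controls and 0.35, -0.17 and 1.54 in the knockouts, a difference of -0.82 (SE 0.43, limma, adjusted p = 0.799). Acat2 was at 3.26, 3.32 and 3.01 in the controls and 3.54, 3.55 and 3.34 in the knockouts. Its groups were separate by a small margin, the 1 such case among the 29 genes, against 7.09% of all genes separate and higher and 4.12% separate and lower. The Acat2 difference was 0.28 (limma, adjusted p = 0.739) and the other probes of Hmgcs1 were not well above background in fed livers. Fdft1 stood at 1.22, 1.71 and 1.82 in the fed controls and 1.17, 0.96 and 1.77 in the fed knockouts, with overlap and a difference of -0.28 (limma, adjusted p = 0.951).

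Within the fed slides the enzymes did not keep a direction. Their median difference was -0.20 on slide 5, with 13 of 18 below 0, and 0.29 on slide 6, with 4 of 18 below 0. Of the 29 genes 17 had opposite signs on the 2 slides and 4 were below 0 on both, among them Nsdhl at -0.54 and -0.42. The slides themselves differed: the enzymes were higher on slide 6 than on slide 5 by a median of 0.55 in the controls (16 of 18) and 0.90 in the knockouts (17 of 18), while all genes were at 0.01 and -0.02. In Fdps this gap was 0.83 in the controls and 1.41 in the knockouts. The fed groups are split unequally over these slides, and a block for the slide left none of the 29 genes past the threshold. In the fed knockouts the 6 hepatocyte markers were all above 0 (median 0.37), with a summed liver signal of 1333680 to 1454140 units against 1035550 to 1264380 in the fed controls. The 7 Kupffer cell markers were all above 0 as well (median 0.59), at 45999 to 82488 units against 34954 to 58140 in the controls. The part of these cells in the fed values was not tested.

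The next comparison asked how the same genes differ between fasted and fed livers within a genotype. In controls 15 of 29 genes were lower in fasted livers and 1 was higher, and in knockouts 19 were lower and 1 was higher. The background is wide here, since 16.5% of all genes were lower and 20.2% higher in controls, and 17% and 18.6% in knockouts. The median of the 29 genes was -0.58 in controls and -0.92 in knockouts, against 0.05 and 0.04 for all genes, and 23 of the 29 were below 0 in each genotype (45.5% and 46.7% of all genes). All 15 genes lower in controls were also lower in knockouts. The share of all genes lower in both genotypes was not counted, so this overlap cannot be set against it. Among 24 other genes of the pathway, 23 of them tested, 8 were lower and 3 higher in controls, and 9 lower and 3 higher in knockouts. They included Srebf1, the SREBP of fatty acid synthesis, at -2.51 and -2.64, and Acss2, a source of cytosolic acetyl-CoA, at -1.22 and -1.12 (limma, adjusted p at most 3.73e-05).

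Of the mevalonate steps 4 of 7 fell in controls and 6 of 7 in knockouts. Mvk stood at 0.90, 1.55 and 1.62 in the fed controls, above the 0.22 to 0.50 of the fasted controls, a change of -0.94 (limma, adjusted p = 0.0022). In knockouts the fed arrays gave 0.98, 0.85 and 1.39 and the fasted arrays -0.63 to -0.09, a change of -1.41 (limma, adjusted p = 0.000162). The other Mvk probe gave -1.10 and -1.74. Fdps was at 1.36, 2.08 and 2.29 in the fed controls and 1.48, 1.05 and 2.67 in the fed knockouts, with no fasted array as high. Its changes were -1.29 and -2.28 (limma, adjusted p = 0.00807 and 0.000242). The other Fdps probe gave -0.29 in controls and -1.77 in knockouts, so in controls the probes disagree. Pmvk fell by 1.13 and 1.42 and on its other probe by 1.01 and 1.27. Hmgcs1 did not pass on its main probe in either genotype (-0.67 and -0.82), and its other 2 probes were not well above background on any fed array.

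Of the sterol steps 6 of 11 fell in controls and 8 of 11 in knockouts. Nsdhl had the largest fall of the enzymes, from fed ratios of 2.20 to 2.90 to fasted ratios of 0.41 to 0.92 in controls and from 1.49 to 2.35 down to -0.68 to -0.19 in knockouts. The changes were -1.93 (SE 0.22, 3.80-fold lower) and -2.33 (SE 0.22, 5.04-fold lower; limma, adjusted p = 5.54e-05 and 1.36e-05), and its other bright probes gave -1.73 to -1.74 and -2.26 to -2.29. Dhcr7 fell by 1.19 and 1.23 and on its other probe by 0.66 and 1.05. Tm7sf2, a sterol reductase, fell by 0.89 in both genotypes. Tm7sf2 was at -0.71 and -0.75 by the liver channel alone and passed in neither (limma, adjusted p = 0.0574 and 0.0538). Sc5d, the lathosterol oxidase, was at -0.48 in controls (limma, adjusted p = 0.0694) and fell by 1.13 in knockouts (limma, adjusted p = 0.00089). Its other probe, well above background on every array, fell by 1.03 and 2.19 (limma, adjusted p over all probes = 0.0026 and 2.02e-05), so the call in controls depends on the probe. Fdft1 fell by 0.64 and 0.97, and its dim other probe gave 0.27 and 0.20. By the liver channel alone Fdft1 passed in neither genotype, at 0.05 and -0.39 (limma, adjusted p = 0.894 and 0.265). The reference signal of Fdft1 was 0.69 and 0.58 higher on fasted arrays. Hsd17b7 and Ebp passed in neither genotype on the probes used. The other Hsd17b7 probe passed in knockouts at -0.73 (limma, adjusted p over all probes = 0.0451). By the liver channel alone Hsd17b7 passed in both genotypes, at -1.28 and -1.64 (limma, adjusted p = 0.00715 and 0.00246), and Ebp in knockouts, at -2.19 (limma, adjusted p = 0.00326).

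Of the regulators Insig1, Srebf2 and Scap fell in both genotypes in the ratio. Insig1 had ratios of 2.83, 3.35 and 3.07 in the fed controls and 0.88, 1.73, 1.48 and 1.18 in the fasted controls. In knockouts it stood at 2.84, 3.41 and 4.15 fed and 1.17, 0.93, 0.72 and 0.73 fasted. The probe lies on chr5:28404246-28404305 of mm9, plus strand. Every fasted array lay below every fed array, and the changes were -1.76 and -2.58 (limma, adjusted p = 0.00041 and 3.07e-05). The other Insig1 probe gave -0.18 in controls, which did not pass, and -1.26 in knockouts, which did (limma, adjusted p over all probes = 0.471 and 0.000303). Srebf2 fell by 0.97 and 1.07, and Scap, read by 1 probe, by 0.37 and 0.69. Scap was at -0.13 and -0.52 by the liver channel alone, and passed in knockouts only (limma, adjusted p = 0.494 and 0.0163). Another Srebf2 probe that was well above background in all groups gave -0.19 and -0.38, the first of them short of the threshold, and the remaining 2 probes were not well above background on any fed control array. Insig2, the other INSIG gene, differed by 0.22 and 0.06 and Stard4 by -0.32 and 0.05 in the ratio, none past the threshold. By the liver channel alone Stard4 passed in both genotypes, at -1.88 and -1.66 (limma, adjusted p = 0.00388 and 0.0110). The reference signal of Stard4 differed by -1.57 and -1.71 between fasted and fed arrays.

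Among the transport genes the bile transporter pair went opposite ways. Abcg8, which with ABCG5 exports sterols into bile, had ratios of 4.35, 4.37, 4.77 and 4.79 in the fasted controls and 1.73, 2.70 and 1.99 in the fed controls. In knockouts it stood at 3.35, 3.95, 4.46 and 4.72 fasted and 2.31, 2.61 and 2.28 fed, again without overlap. The probe lies on chr17:85098745-85098804 of mm9, plus strand. Abcg8 rose by 2.43 (SE 0.30) in controls and 1.72 (SE 0.30) in knockouts (limma, adjusted p = 8.35e-05 and 0.000843). The probe was well above background on 1 of 3 fed control and 2 of 3 fed knockout arrays, so the fed level is uncertain, and the other Abcg8 probe was above it on no fed array. Abcg5, whose product pairs with that of Abcg8, fell by 0.53 and 0.62 (limma, adjusted p = 0.0127 and 0.00562). Abcg5 was at -0.50 and -0.46 by the liver channel alone and passed in neither genotype (limma, adjusted p = 0.0985 and 0.143). Abcg8 was at 1.79 and 1.31 by that channel and passed in both. Npc2, which hands cholesterol to NPC1 in lysosomes, fell by 0.53 and 0.35. Npc1, Soat2, the acyltransferase that esterifies cholesterol, and Abca1, which loads cholesterol onto HDL, passed in neither genotype.

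**Figure D3:**
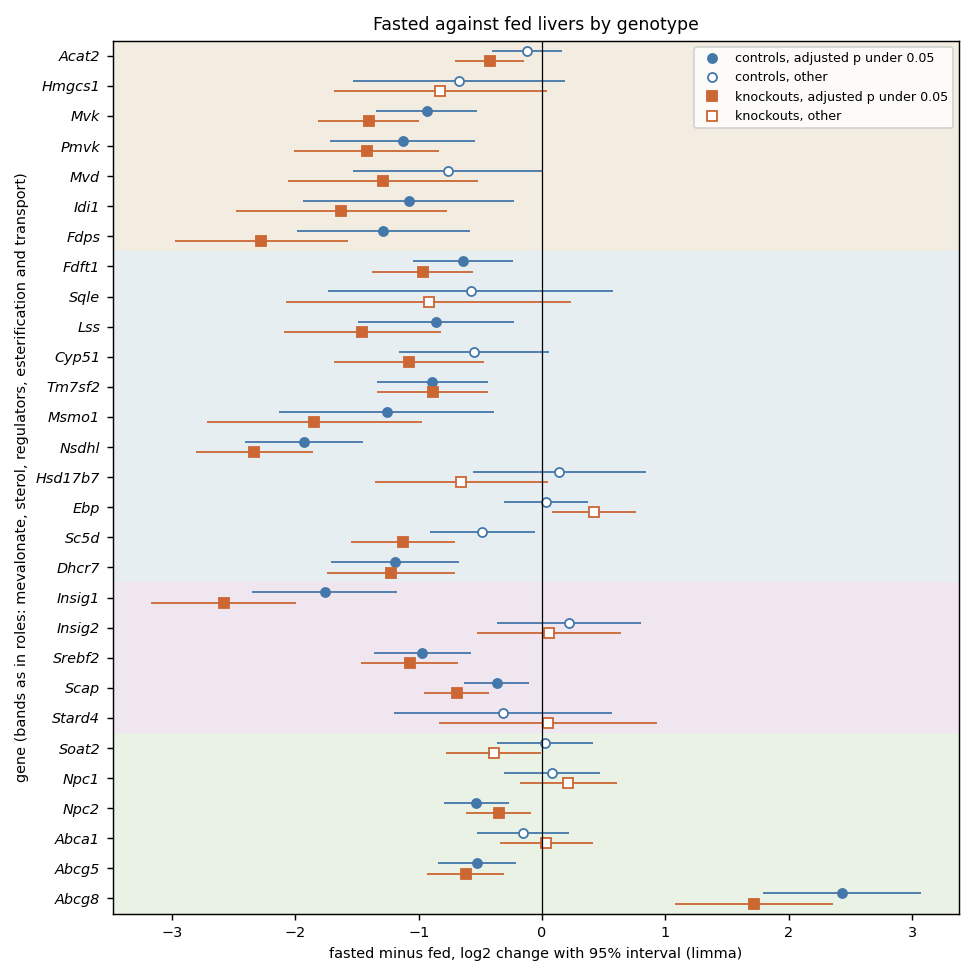
Change of the log2 ratio from fed to fasted livers with its 95% interval (limma) for the 29 genes, in controls (blue circles) and knockouts (orange squares), filled where the adjusted p was under 0.05; shaded bands from top to bottom are mevalonate steps, sterol steps, regulators, and esterification and transport. Insig1 and Nsdhl lie farthest below 0 and Abcg8 farthest above it, and in 23 of the 29 genes the knockout value is lower than the control value.

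The fasted and fed arrays lay on separate slides that were scanned in separate groups, so slide and feeding state cannot be told apart. The reference RNA, the same on every array, gave signals that differed between fasted and fed arrays in 61.1% of all genes in controls and 57.0% in knockouts, and in 8 of the 29 genes lower and 9 higher in each. With the liver channel alone, 11 of the 29 genes were lower and 2 higher in controls (background 19.4% and 18.8%), 7 of them called the same way as by the ratio. In knockouts 16 were lower and 1 higher (background 14.4% and 14.9%), 14 of them called the same way. Nsdhl was at -0.97 and -1.61 and Insig1 at -0.84 and -1.78 by the liver channel, and each passed in both genotypes. Srebf2, whose reference signal differed by -0.001 and 0.05, was at -0.97 and -1.02 and passed in both. Mvk was at -0.16 and Fdps at -0.86 in controls (limma, adjusted p = 0.553 and 0.157), and the reference signal of Mvk was 0.78 higher on fasted arrays. Npc2 turned from -0.53 to 0.12 in controls and from -0.35 to 0.45 in knockouts (limma, adjusted p = 0.754 and 0.218). The 6 hepatocyte markers also fell with fasting in the ratio, 5 of them in controls and 6 in knockouts (median -1.17 and -1.48). Of 7 Kupffer cell markers 4 rose in controls, and in knockouts 3 rose and 1 fell. Of 5 endothelial markers 3 rose in each genotype and 2 fell in knockouts, of 5 stellate markers 2 rose in controls and 1 in knockouts, and of 3 tested erythroid markers 2 fell in each. Of 3 tested neutrophil markers 1 rose in knockouts, and no cholangiocyte marker passed. The part of these cells in the result was not tested.

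Whether the fasted knockouts fall further than the fasted controls was tested as an interaction of genotype and feeding. No gene among the 17188 passed (background 0%), and 1 of the 29 had an unadjusted p under 0.05 against 6.57% of all genes. The interaction was below 0 in 23 of the 29 genes (52.5% of all genes), with a median of -0.33, and among the enzymes in 16 of 18, with a median of -0.44. The 23 include Abcg8 and Insig2, whose fasting changes were above 0 in both genotypes. Some other lists lay the same way. The interaction was below 0 in 6 of 6 hepatocyte markers (median -0.31) and in 9 of 12 fatty acid synthesis genes (median -0.28). It was also below 0 in 6 of 7 Kupffer cell markers (median -0.49, 4 of them at an unadjusted p under 0.05). Further lists did not lean this way. Below 0 were 12 of 23 other genes of the pathway (median -0.02) and 1 of 4 cholangiocyte markers (median 0.44). Of the tested neutrophil markers 1 of 3 was below 0 (median 0.24), and of the tested pancreas markers 0 of 3 (median 1.67). The part of these cells was not tested. Sc5d had an interaction of -0.64 (SE 0.28, limma, adjusted p = 0.745), Fdps -0.99 (SE 0.46, 0.766), Insig1 -0.82 (SE 0.38, 0.768) and Scap -0.33 (SE 0.17, 0.768). On other probes Sc5d gave -1.16 and Insig1 -1.08 (limma, adjusted p over all probes = 0.537 and 0.526). The fasting changes of both genotypes share no arrays, but the fed groups that enter them differ between slides 5 and 6 as given above.

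In newborn livers no gene passed the threshold in the comparison of knockouts with wild types, against a background of 0.344% of all 17176 genes lower and 1.09% higher, and 3 of the 29 had an unadjusted p under 0.05 (13.4% of all genes). The median was 0.00, with 14 of 29 genes below 0 (52.6% of all genes), and the 18 enzymes had a median of 0.04. The ranges were separate and lower in 3 genes, against 3.69% of all genes, and separate and higher in 0, against 5.79%. Hsd17b7 had ratios of 0.68, 0.75, 1.43 and 1.14 in the wild types and 0.44, -0.12, 0.12 and 0.20 in the knockouts. Its difference was -0.84 (SE 0.19, limma, adjusted p = 0.0664), and its other probe gave -0.62. Hsd17b7 was thus the 1 enzyme with separate groups at birth.

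Stard4 stood at 0.05, 0.48, 0.72 and 0.06 in the newborn wild types and -0.81, -0.25, -0.26 and -0.74 in the knockouts, a difference of -0.84 (SE 0.20, limma, adjusted p = 0.0784). Its other probes gave -0.15 and -0.21, so the probes disagree in size. Scap was at 1.76, 1.87 and 1.47 on the 3 wild-type arrays with a usable spot and at 0.78, 1.30, 1.25 and 0.80 in the knockouts, a difference of -0.67 (SE 0.18, limma, adjusted p = 0.117). Npc1 was at 0.84, 1.28, 1.77 and 1.51 against 0.99, 1.09, 0.90 and 0.86 (-0.39, limma, adjusted p = 0.405), with overlap through wild type 1, and its other probe was well above background on no array. Without newborn wild type 1, Hsd17b7 was at -0.95 and passed (limma, adjusted p = 0.0380). By the liver channel alone 2 genes were lower (Hsd17b7 and Stard4, background 1.78%), with array weights 3 (background 1.84%), and with the position on the slide as a block, an alternative chosen after seeing the data, 3 as well (Hsd17b7, Stard4 and Scap, background 1.37%).

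Wild types and knockouts of the newborn set lay on a slide each, so slide and genotype cannot be told apart, and the reference signal itself differed in 11.9% of all genes. Markers of other cells moved with the newborn knockouts. Of 7 Kupffer cell markers 6 were below 0 (median -0.68) and 2 fell, Marco by 1.34 and Csf1r by 0.70 (limma, adjusted p = 0.00862 and 0.0499), and their summed liver signal ran from 39530 to 65948 units in the knockouts and from 72454 to 122817 in the wild types. All 5 endothelial markers were below 0 (median -0.68), at 17850 to 24498 units in the knockouts and 21873 to 24199 in the wild types, and all 5 stellate markers were below 0 (median -0.43). All 6 hepatocyte markers were below 0 in the ratio (median -0.17), while their summed liver signal ran from 1008160 to 1213010 units in the knockouts and from 992058 to 1078120 in the wild types. The part of these cells in the readings of Hsd17b7, Stard4 and Scap was not tested. Of the 23 other genes of the pathway tested none passed, and Cyp7a1, the rate-limiting enzyme of bile acid synthesis, had the smallest p, at -1.05 (limma, adjusted p = 0.114).

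The median of the enzymes also differed among mice of 1 group. In newborn wild types the median log2 ratio of the 18 enzymes was -0.25, 0.34, 0.71 and -0.44, and in newborn knockouts -0.36, 0.44, 0.45 and -0.17, while the median of all genes lay between 0.08 and 0.14. In fasted controls it was 0.77, 1.01, 0.59 and 0.89 and in fasted knockouts 0.50, 0.08, 0.09 and -0.25, so no fasted knockout reached the lowest fasted control. In fed controls it was 1.30, 2.00 and 2.13 and in fed knockouts 1.45, 1.00 and 2.32, with overlap. The spread among the newborns of either genotype was larger than the gap between the genotypes. Compared after the values had been seen, newborn arrays at the outer positions 1 and 4 were lower than those at the inner positions 2 and 3 in 9 of the 29 genes and higher in 1 (limma, adjusted p under 0.05, background 2.65% lower). Of all 17176 genes 456 were lower and 889 passed in either direction. Cyp51 was at -0.97 and Nsdhl at -0.91 (limma, adjusted p = 0.0188 for both). Acat2 was the gene that went the other way, at 0.53 (limma, adjusted p = 0.0335), and Tm7sf2, Mvd, Ebp and Hsd17b7 lay between 0.01 and 0.07. In the adults no gene of the 29, or of all genes, passed between outer and inner arrays (limma), while 14 of the 29 had an unadjusted p under 0.05, against 4.69% of all genes. On the fed slides the outer array was a single mouse. Each position on a slide held 1 mouse, so position and mouse cannot be told apart.

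**Figure D4:**
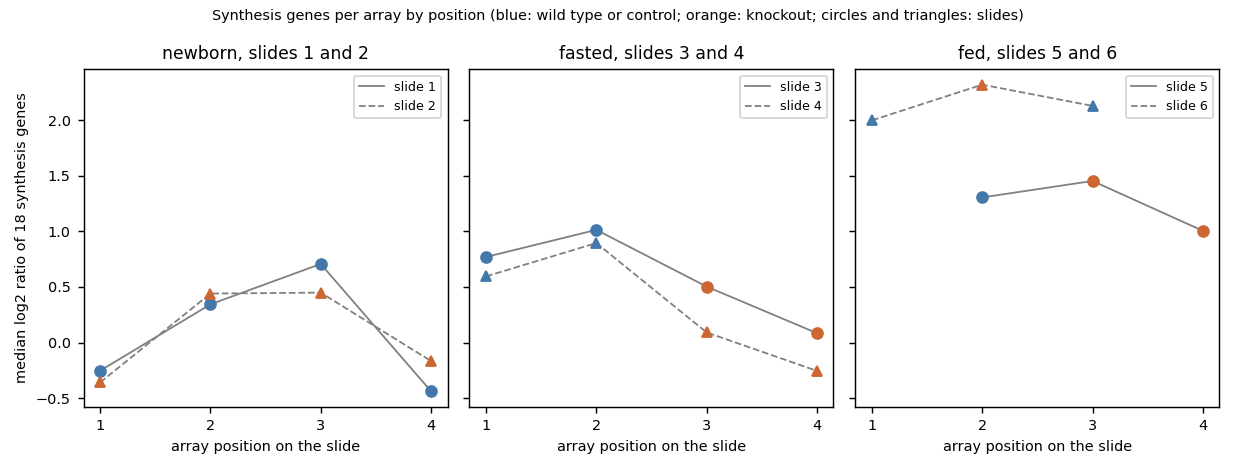
Median log2 ratio of the 18 enzymes on each array against the position of the array on its slide (1 to 4), for newborn, fasted and fed livers, with lines joining the arrays of a slide; blue is wild type or control, orange is knockout. On slides 1 and 2 the arrays at positions 1 and 4 lie below those at positions 2 and 3, and on slides 3 and 4 the controls fill positions 1 and 2 and lie above the knockouts at positions 3 and 4.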

How the data were processed

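Per the file headers, the array files hold spot intensity values, the median brightness of each spot and its local background per channel, quantified with Feature Extraction 10.5.1.1 with probe positions on mm9. Per the submitters' processing notes the version was 8.5.1.1, and this disagreement is not settled. The deposited log10 ratios of the series table, reference over liver, were checked against the array files and differed by 0 on all 22 arrays. Per the labels, liver RNA carried Cy3 and the reference Cy5, with no dye swap.

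Log2 ratios of liver over reference were recomputed from the deposited intensities with limma 3.58.1 in R 4.3.3 (normexp, offset 50, then loess within each array). Local backgrounds marked as outliers were replaced by the median of the array, and flagged spots were set to missing. The number of arrays limits the precision. A gene was read by its brightest probe among those well above background on 4 or more of the newborn or 3 or more of the adult arrays. Names came from the array files and a RefSeq table (GRCm38.p6). Group means were compared with lmFit and eBayes, two-sided, over 8 newborn arrays and over 14 adult arrays of 4 groups, with Benjamini-Hochberg adjustment over all genes and a threshold of 0.05. On simulated data for the fasted knockout comparison (17188 genes), 71% of changes of log2 size 1 and 98% of size 2 were recovered. These shares are for genes in general and were not worked out for the cholesterol genes. In the measured fasted comparison Nsdhl passed at -1.10 (SE 0.20). Msmo1 at -1.17 (SE 0.37), Fdps at -1.16 (SE 0.30), Hsd17b7 at -1.12 (SE 0.30) and Sqle at -1.06 (SE 0.49) did not. A gene that did not pass is therefore not shown to be unchanged.

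The genes and lists were chosen with earlier results of these data known. Genes past the threshold in a comparison are described with their values, up to 10 by smallest p, and where fewer than 4 passed, those with the smallest p make up 4. Other genes appear as members of their role or as up to 3 examples of a list. The labels call the samples biological replicates. Alternatives covered background, channel, filter, probe choice, weights, blocks and each array left out in turn. Plots were drawn with matplotlib 3.10.9 under Python 3.11.15, with NumPy 2.4.6 and pandas 2.3.3.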

Additional observations from a re-analysis of the deposited data

Results flagged for a closer look

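Of 114 groups of 4 values tested for a sample far from the others, 3 held one, and chance alone would set off about 1 group in 20. Abca1 stood at 0.98 in newborn wild type 1, against 2.22 to 2.32 in the other 3 wild types. Mvk stood at 0.22 in fasted control 3, against 0.45 to 0.50 in the other fasted controls, and still above every fasted knockout. Scap stood at 1.02 in fasted knockout 2, against 1.25 to 1.29 in the other fasted knockouts.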

How the results depend on the processing

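Of 912 values of single genes over the alternatives, 881 kept their direction and side of the threshold, 14 lost the threshold, 16 gained it and 1 reversed, and of 450 counts and medians 31 moved. The reversed value was Npc2 between fasted and fed controls, 0.118 with the liver channel alone. With the outlier local backgrounds kept, the counts were 0 lower for fasted knockouts and 0 higher for fasted against fed in controls and in knockouts. The medians were then 0.00598 for fasted knockouts, -0.97 for fasted against fed controls and 0.00807 for the interaction. On fasted control 1, where a local background of 590602 intensity units stood against a median of 27, the SD of the log2 ratios was then 0.75 instead of 1.36. On fasted control 2, with a background of 201012 units, it was 0.83 instead of 1.33. It was 0.76 instead of 1.10 on newborn wild type 3 and 0.69 instead of 1.06 on newborn knockout 1. With the liver channel alone 2 genes were lower in newborn knockouts (background 1.78%) and 2 higher in fasted than in fed controls (background 18.8%). Array weights gave 3 lower in newborns (background 1.84%) and 2 higher in fasted than in fed knockouts. Fitting the fasted groups alone gave 2 lower in fasted knockouts, and the slide as a block gave 5 (background 0.541%). The position as a block, added after seeing the data, gave 3 lower in newborns (background 1.37%) and 2 higher in fasted than in fed knockouts. Leaving out fasted knockouts 1 and 2, also added, gave 0 lower in fasted knockouts (background 0.198%). Counts given here without a background, with those of the arrays left out in turn, cannot be set against the share of all genes. The causes of the shifts under these alternatives were not tested. Leaving out each array in turn gave 0 to 1 lower in newborns, 0 to 2 in fasted knockouts, 9 to 17 lower in fasted than in fed controls (9 without fed control 2) and 1 to 2 higher in fasted than in fed knockouts, and a median of -0.82 to -0.50 for fasted against fed controls. With the replicate number as a block, 1 gene was lower in newborns (Stard4, limma, adjusted p = 0.0173, background 0.507%). The same-numbered newborns correlated at 0.50, 0.35, 0.39 and -0.23. Their numbers are also their array positions, 1 to 4 on each newborn slide, so a pairing and the position cannot be told apart. Fed arrays had the fewest spots well above background, and the probes named as not above it there have no measured fed level.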

Other observations

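After the values had been seen, the 18 enzymes were compared between the outer arrays (positions 1 and 4) and the inner arrays (positions 2 and 3) of each slide. Slide 5 held positions 2, 3 and 4 and slide 6 positions 1, 2 and 3, so the outer array there was a single mouse, fed knockout 2 and fed control 2. The enzymes were lower on the outer arrays on all 6 slides, with medians of -0.63, -0.18, -0.32, -0.37, -0.35 and -0.18 on slides 1 to 6. On slides 1 to 4, 13 of the 29 genes were lower on the outer arrays of every slide, against 9.32% of 15884 genes, among them Nsdhl, Fdps, Sqle, Cyp51, Dhcr7 and Srebf2. On all 6 slides it was 8 of the 29, against 2.11% of 15881 genes, and Nsdhl was not among them, at 0.01 on slide 6.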
